A study of Mus musculus with 12 samples.

Results

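The Cyp3a genes encode cytochrome P450 enzymes of the 3a subfamily, and 8 of them were followed in mouse liver: Cyp3a11, Cyp3a13, Cyp3a16, Cyp3a25, Cyp3a41a, Cyp3a41b, Cyp3a44 and Cyp3a59. They were taken by gene name from a table of 57180 genes, and all 8 were among the 19350 genes that passed the filter on low counts. All 12 livers came from mice that lacked Csa (Csa-/-), the Cockayne syndrome gene also called Ercc8, and that had received the AAV9-CSA vector in the lateral ventricles of the brain as newborn pups. The vector carries a human CSA gene behind a ubiquitous promoter. The 6 KO livers were taken at the humane endpoint of diseased mice and the 6 Het livers (Csa-/-;Xpa+/-) from age-matched littermates without signs of disease, with 3 females and 3 males in each genotype. The genotype of the KO mice is written as Csa-/-;Xpa+/+ in the labels and methods of the study. The results of the study describe these endpoint livers as those of CX mice, which it defines as Csa-/- Xpa-/-. The mice are called KO here as labelled. Xpa, the repair gene in which the groups differ, measured 3.1 to 6.34 CPM (counts scaled to library size) in the Het livers and 0.992 to 1.83 in the KO livers. Reads were still assigned to the mouse Csa gene, Ercc8, in these Csa-/- livers, at 5.1 to 8.68 CPM in Het and 14.8 to 34 CPM in KO. Whether reads of the human CSA gene of the vector were among them was not tested. Genotype and disease stage moved together in this design, so their parts in any difference between KO and Het cannot be told apart. Each mouse gave 1 liver and is named here by its genotype, sex (F or M) and number, as labelled. Ages are not given in the labels.

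Cytochromes P450 of the 3a subfamily sit in the membrane of the endoplasmic reticulum of hepatocytes and oxidize steroids, bile acids and many drugs. They draw electrons from NADPH through the reductase Por, with cytochrome b5 as a helper, and carry a heme group whose synthesis is limited by Alas1. The xenobiotic receptors PXR (Nr1i2) and CAR (Nr1i3) and the liver factor Hnf4a are known regulators of the family. Cyp3a11 is the main form of adult mouse liver and Cyp3a13 is also made in the intestine. Cyp3a16 is known as a form of fetal and young liver, and Cyp3a41 and Cyp3a44 as forms of female liver that follow the sex-dependent pattern of growth hormone release.

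Of the 8 genes, 7 lie in a cluster on mouse chromosome 5 (GRCm39) and Cyp3a13 lies apart from them at chr5:137891193-137919882. In the order of the chromosome these are Cyp3a16 (chr5:145373119-145406533), Cyp3a41b (chr5:145495474-145521540), Cyp3a41a (chr5:145630859-145656946), Cyp3a44 (chr5:145710793-145742686), Cyp3a11 (chr5:145791236-145816867), Cyp3a25 (chr5:145913516-145946432) and Cyp3a59 (chr5:146016067-146050097). All but Cyp3a59 are on the minus strand. Cyp3a57 comes before Cyp3a16, and the pseudogene Cyp3a63-ps lies between the 2 Cyp3a41 genes. The genes Cyp3a16, Cyp3a41b, Cyp3a41a and Cyp3a44 are thus neighbours, and they are treated below as a group of 4. That group was formed after their values were seen.

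**Figure D1:**
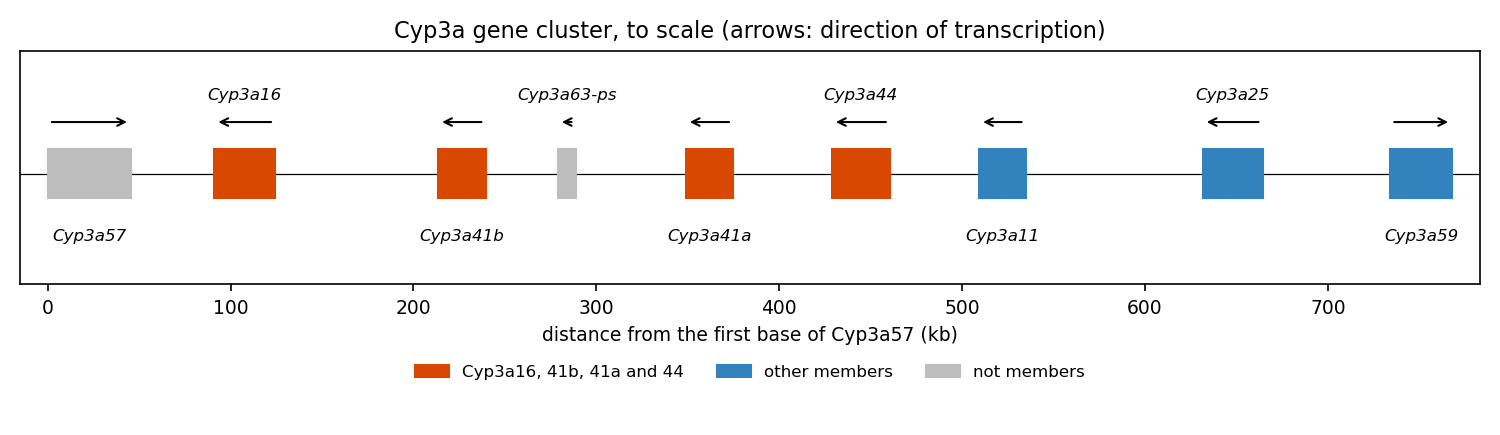
Map of the Cyp3a cluster on chromosome 5, drawn to scale as the distance from the first annotated base of Cyp3a57 in kilobases, with arrows for the direction of transcription. Cyp3a16, Cyp3a41b, Cyp3a41a and Cyp3a44 (orange) are neighbours, the other members of the cluster are blue, and Cyp3a57 and Cyp3a63-ps, which are not members, are gray.

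The coding sequences fall into 3 sets by likeness. Cyp3a16, Cyp3a41a, Cyp3a41b, Cyp3a44 and Cyp3a11 shared at least 92.4% of their coding bases, Cyp3a25 and Cyp3a59 shared 97.5% with each other, and Cyp3a13 shared at most 76.5% with any other member. Cyp3a41a and Cyp3a41b differed at 2 of 1512 coding bases. Both differences left the encoded amino acid unchanged. They are shown here because they are nearly all that tells reads of the 2 genes apart: each run is the coding strand within an exon and the capital marks the base that differs. The first pair is at chr5:145654760-145654800 in Cyp3a41a and chr5:145519350-145519390 in Cyp3a41b, and the second pair is at chr5:145645931-145645968 and chr5:145510517-145510554, all on the minus strand of GRCm39.
Cyp3a41a, first site: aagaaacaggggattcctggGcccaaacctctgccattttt
Cyp3a41b, first site: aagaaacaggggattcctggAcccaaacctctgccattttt
Cyp3a41a, second site: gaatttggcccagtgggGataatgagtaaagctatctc
Cyp3a41b, second site: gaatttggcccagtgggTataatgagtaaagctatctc

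**Figure D2:**
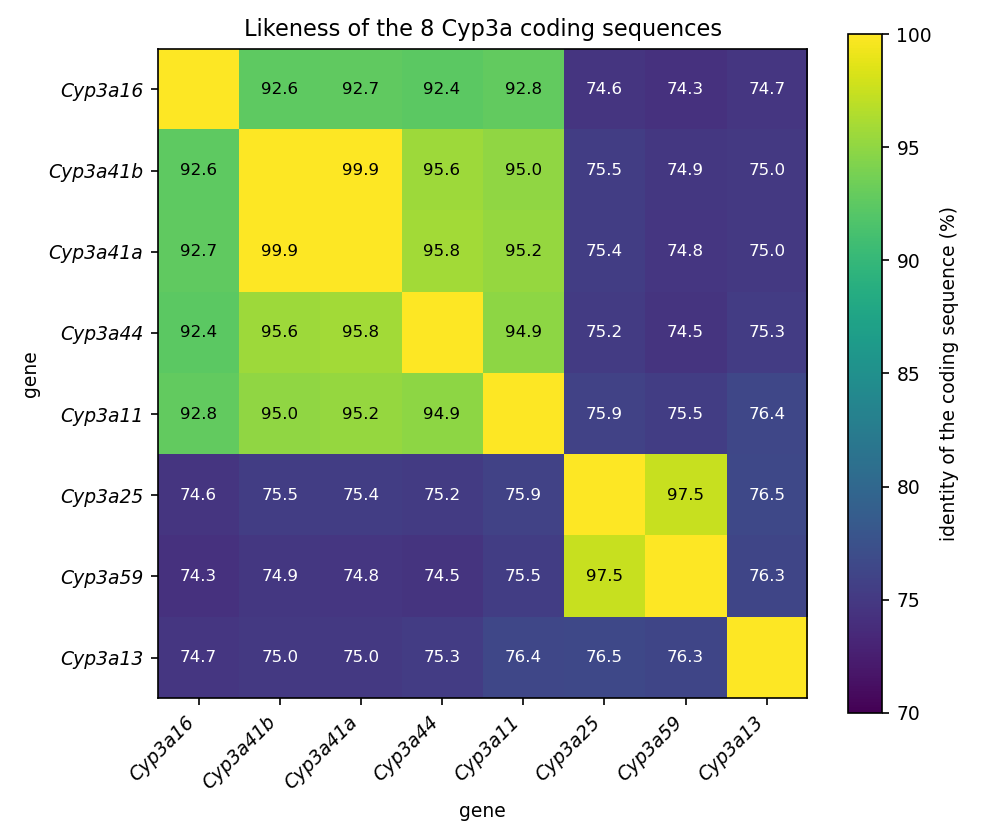
Heat map of pairwise identity of the annotated coding sequences, in percent, for the 8 Cyp3a genes on both axes. Cyp3a41a and Cyp3a41b are 99.9% identical, Cyp3a25 and Cyp3a59 97.5%, and Cyp3a13 is no more than 76.5% identical to any other member.

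This likeness bears on the values. Of the 31-base words in the Cyp3a41a transcript, 99.9% also occur in another Cyp3a transcript, and the share is 95.9% for Cyp3a41b, 49.2% for Cyp3a59, 48.3% for Cyp3a44, 47.0% for Cyp3a25, 32.5% for Cyp3a11, 27.3% for Cyp3a16 and 0.2% for Cyp3a13. The split of reads between Cyp3a41a and Cyp3a41b is therefore uncertain, and the sum of the 2 is given beside them where it matters. The reads of Cyp3a13 are nearly all its own.

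The promoters of the group of 4 are also alike. The windows below are the 250 bases before the RefSeq start of each gene, 5′ to 3′. They are printed because 4 of the 5 belong to the neighbouring genes of the group and the fifth to Cyp3a11, whose coding sequence is close to theirs and whose level did not follow theirs. Capitals mark bases that differ from Cyp3a41a or, between its first and last base, have no counterpart in it, and in Cyp3a41a the base that differs from Cyp3a41b. Bases beyond either end of the Cyp3a41a window are in lower case, since nothing stands opposite to them. The sequences are from the RefSeq promoter table (GRCm38.p6), and each was found at 1 place of chromosome 5 of GRCm39: chr5:145406534-145406783 for Cyp3a16, chr5:145521541-145521790 for Cyp3a41b, chr5:145656947-145657196 for Cyp3a41a, chr5:145742685-145742934 for Cyp3a44 and chr5:145816665-145816914 for Cyp3a11, all on the minus strand. The RefSeq start of Cyp3a11 lies inside the gene as GENCODE draws it.
Cyp3a16: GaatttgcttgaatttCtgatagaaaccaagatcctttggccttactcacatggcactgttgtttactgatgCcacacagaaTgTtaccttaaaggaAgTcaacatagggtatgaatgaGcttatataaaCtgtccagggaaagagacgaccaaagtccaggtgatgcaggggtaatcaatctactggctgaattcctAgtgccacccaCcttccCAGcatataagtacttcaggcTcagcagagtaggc
Cyp3a41b: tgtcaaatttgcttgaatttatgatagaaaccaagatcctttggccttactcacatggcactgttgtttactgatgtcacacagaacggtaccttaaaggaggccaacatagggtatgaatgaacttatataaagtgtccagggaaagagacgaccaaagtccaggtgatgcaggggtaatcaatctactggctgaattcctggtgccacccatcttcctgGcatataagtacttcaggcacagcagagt
Cyp3a41a: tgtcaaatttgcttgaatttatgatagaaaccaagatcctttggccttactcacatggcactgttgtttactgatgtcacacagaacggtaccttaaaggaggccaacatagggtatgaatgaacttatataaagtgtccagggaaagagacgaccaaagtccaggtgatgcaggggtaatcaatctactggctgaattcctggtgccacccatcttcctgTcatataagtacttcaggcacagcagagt
Cyp3a44: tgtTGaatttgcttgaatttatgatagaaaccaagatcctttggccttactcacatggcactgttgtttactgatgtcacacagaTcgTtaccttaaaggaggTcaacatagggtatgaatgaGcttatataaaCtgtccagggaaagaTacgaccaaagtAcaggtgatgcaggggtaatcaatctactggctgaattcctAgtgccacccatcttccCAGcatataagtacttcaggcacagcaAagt
Cyp3a11: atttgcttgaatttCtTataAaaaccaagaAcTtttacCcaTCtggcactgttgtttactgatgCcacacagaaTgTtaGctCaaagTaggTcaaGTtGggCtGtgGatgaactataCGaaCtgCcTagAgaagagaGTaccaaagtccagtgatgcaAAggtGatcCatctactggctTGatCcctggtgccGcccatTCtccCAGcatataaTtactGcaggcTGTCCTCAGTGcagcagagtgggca

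Over the aligned bases, the promoter of Cyp3a41a was 99.6% identical to that of Cyp3a41b, 94.4% to that of Cyp3a44, 93.9% to that of Cyp3a16 and 80.9% to that of Cyp3a11. With Cyp3a13, Cyp3a25 and Cyp3a59 it shared 62.5%, 60.5% and 62.0%. The windows were searched on both strands for 6 motifs. The letters TGTTTAC, as in a site for forkhead factors such as Foxa2, stand in the promoters of Cyp3a16, Cyp3a41a, Cyp3a41b, Cyp3a44 and Cyp3a11 and in 3.2% of 32851 mouse promoter windows. The letters TATAAA stand at position -122 from the start in Cyp3a41a, Cyp3a41b and Cyp3a44, at position -126 in Cyp3a16 and at position -234 in Cyp3a11, and in 12.4% of all windows. The nuclear receptor half-site AGTTCA (11.8% of all windows) was found in Cyp3a41a, Cyp3a41b and Cyp3a11, and AGGTCA (14.0%) in Cyp3a44, Cyp3a11, Cyp3a25 and Cyp3a59. TTGCNNAA, as bound by C/EBP factors (9.6%), was found in Cyp3a25, and the STAT5 letters TTCNNNGAA (7.0%) in no member. Matches of different motifs did not overlap. These are matches of letters in a short window and not sites shown to be bound.

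Between 30044812 and 43634073 estimated counts per liver were assigned to genes. The 6 hepatocyte markers measured, among them Alb, summed to 59665 to 133169 CPM in every liver. Replicates are separate mice. The tissue is bulk liver, where fewer cells of a type and less RNA per cell cannot be told apart. Levels of a gene are given in CPM, scaled by the TMM method. Levels of different genes are compared in TPM, which takes transcript length into account. Differences are log2 fold changes from edgeR's quasi-likelihood test with their standard error (SE), and a gene was called at a Benjamini-Hochberg adjusted p under 0.05 over all genes tested.

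In males, 4 of the 8 Cyp3a genes were called higher in KO than in Het livers: Cyp3a13, Cyp3a16, Cyp3a41a and Cyp3a44. None was called lower. Over all genes tested, 7.45% were called in males, with 4.47% higher and 2.98% lower, and the median log2 fold change was 0.02 against 3.66 over the 8 Cyp3a genes. Cyp3a16, Cyp3a41a and Cyp3a44 were nearly absent in Het males, at 0 to 0.26 CPM. In KO males they ranged from 0.975 CPM (Cyp3a16) to 402 CPM (Cyp3a41a). The main form, Cyp3a11, was not called, and neither were Cyp3a25, Cyp3a41b and Cyp3a59.

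Cyp3a41a measured 0.0668, 0.26 and 0.224 CPM in Het_M_119, Het_M_125 and Het_M_137, and 31.9, 402 and 143 CPM in KO_M_118, KO_M_122 and KO_M_136. The groups did not overlap. The log2 fold change was 9.64 (SE 1.96, adjusted p = 0.0196). The Het males held 17 counts in all against 20111 in the KO males, a ratio of 962 with a counting interval of 601 to 1654 (95%), which covers counting error only. Without KO_M_122 the ratio was 435 and without KO_M_118 it was 1470. The sum of Cyp3a41a and Cyp3a41b, fitted as 1 gene, had a log2 fold change of 9.67 (SE 1.96). The Cyp3a41a call was lost without any single Het male (adjusted p = 0.0741 without Het_M_119, 0.0751 without Het_M_125 and 0.0669 without Het_M_137), with no filter on low counts (0.0523) and with limma on log2(TPM + 1) (0.0821).

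Cyp3a44 measured 0.134, 0 and 0.032 CPM in the Het males and 8.04, 30.2 and 17.9 CPM in the KO males. Again every KO male stood above every Het male. The log2 fold change was 7.41 (SE 1.11, adjusted p = 0.00358), and the ratio of the summed counts was 327 (140 to 1009). That ratio was 217 without Het_M_125 and 1101 without Het_M_119, which held 4.01 of the 5.01 Het counts. This call held under all 25 alternatives run for it.

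Cyp3a16 measured 0, 0.0651 and 0.064 CPM in the Het males and 0.975, 18.9 and 6.65 CPM in the KO males. The groups did not overlap and the log2 fold change was 6.48 (SE 1.77, adjusted p = 0.0467). With 4 counts in all in the Het males, the ratio of the summed counts was 187 (73 to 690), 79.5 without KO_M_122 and 293 without KO_M_118. This call was close to the threshold and was lost in 14 of 25 alternatives, with adjusted p from 0.0514 to 0.327. Among these were the fits without Het_M_119 (0.175), Het_M_125 (0.153) or Het_M_137 (0.133), without KO_M_122 (0.109) or KO_M_136 (0.078), and without Het_F_111 (0.0576) or KO_F_108 (0.0558), KO_F_112 (0.0529) or KO_F_123 (0.0649).

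Cyp3a41b had 0 counts in every Het male and 0.538, 8.24 and 1.31 CPM in the KO males. Against a floor of 3 counts over the Het males, it was at least 95.4-fold higher in KO. This limit was 26.8-fold without KO_M_122 and 63 to 146-fold without any of the other 5 males. The fitted log2 fold change of 5.92 (SE 2.33, adjusted p = 0.171) depends on the prior count and did not pass the test, while DESeq2 gave an adjusted p of 0.000168. KO_M_122 had the highest and KO_M_118 the lowest level of the 4 genes Cyp3a16, Cyp3a41a, Cyp3a41b and Cyp3a44 alike.

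**Figure D3:**
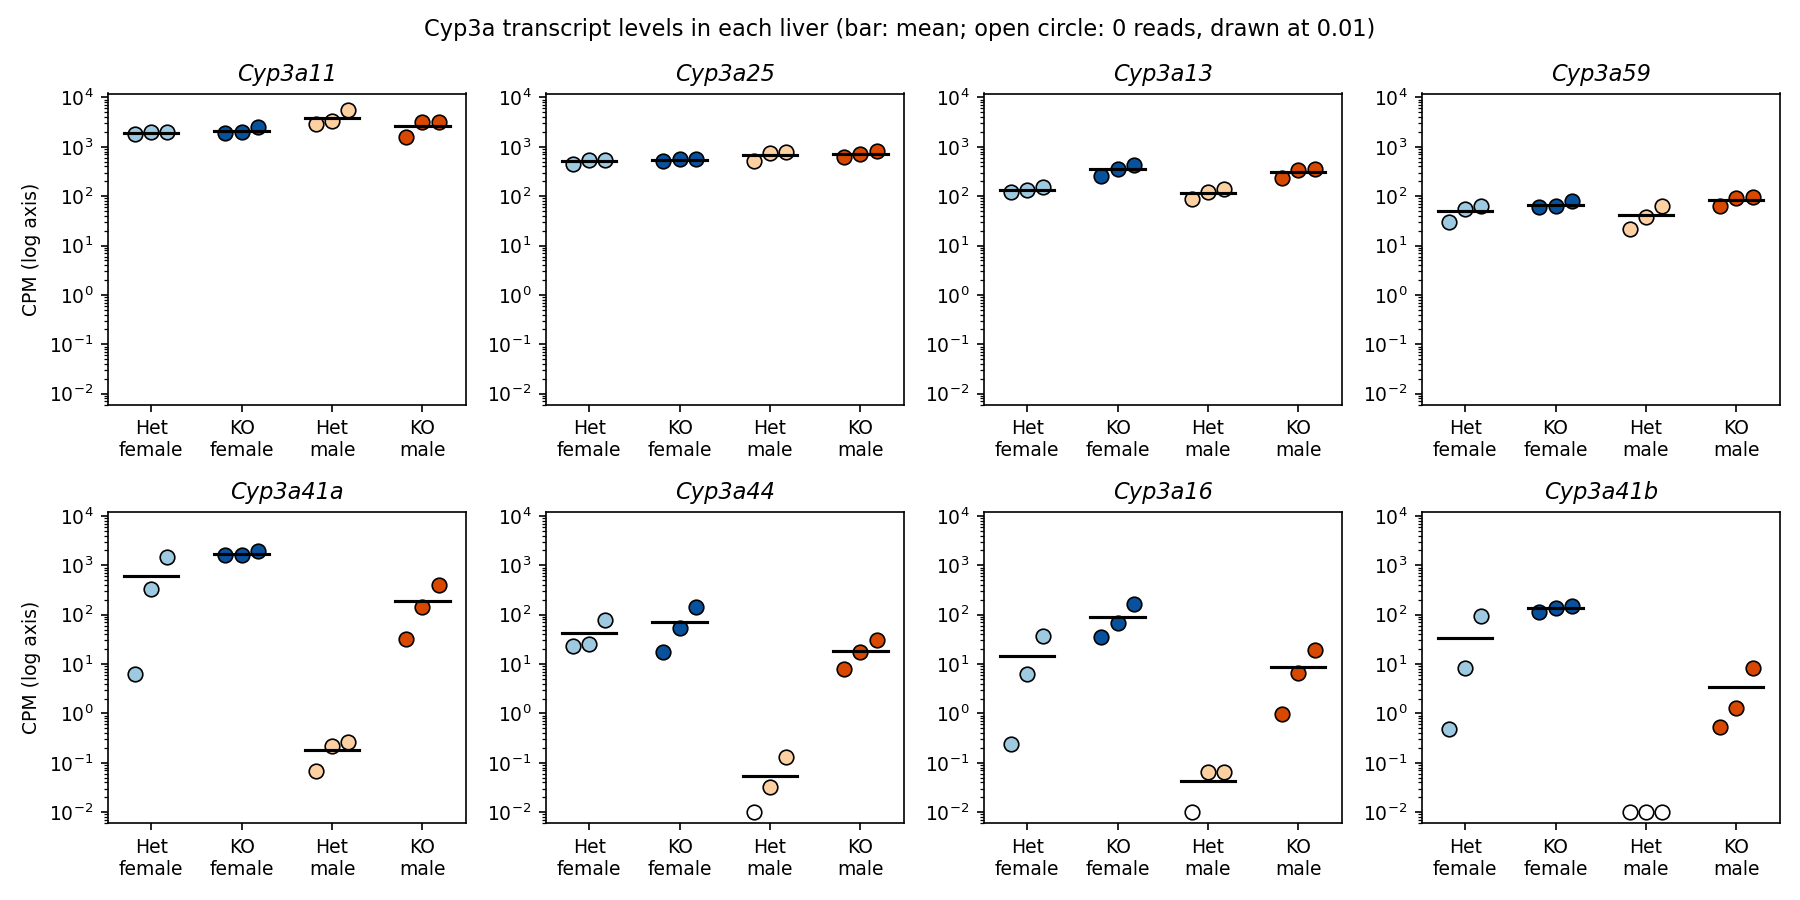
CPM of each Cyp3a gene in each liver on a log axis, with 3 mice per group, a bar for the mean, and open circles drawn at 0.01 for livers with 0 counts. Cyp3a41a, Cyp3a44, Cyp3a16 and Cyp3a41b are at 0 to 0.26 CPM in Het males and at 0.538 to 402 CPM in KO males, while Cyp3a11 and Cyp3a25 overlap between genotypes in both sexes.

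Cyp3a13, the member outside the cluster, measured 122.7, 137.9 and 88.5 CPM in Het males and 352, 231 and 339 CPM in KO males. The log2 fold change was 1.40 (SE 0.23, adjusted p = 0.00513), a fold of 2.64. Cyp3a13 is also an intestinal gene, so intestinal markers were looked at: 2 of 6 passed the filter on low counts, and their list summed to 29.0 to 45.7 CPM in the Het livers of both sexes and to 6.51 to 24.9 CPM in the KO livers. Fabp2, with nearly all of that sum, was called lower in KO females (log2 fold change -1.98, adjusted p = 0.0049) and not in males (-0.99, adjusted p = 0.0686), and Vil1 was not called in either sex (-0.45 in females and 0.64 in males). The part of intestinal RNA in the Cyp3a13 values was not tested. The processed pseudogene Gm15502 lies within Cyp3a13 on the same strand and held at most 68.4 counts in a liver.

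Cyp3a11 measured 5450, 3398 and 2897 CPM in Het males and 3129, 3226 and 1616 CPM in KO males. The groups overlapped and the log2 fold change was -0.56 (SE 0.28, adjusted p = 0.253). Cyp3a25 measured 792, 757 and 509 CPM in Het males and 823, 611 and 725 CPM in KO males, with a log2 fold change of 0.07 (SE 0.18, adjusted p = 0.858). Cyp3a59, the close relative of Cyp3a25, measured 63.4, 37.8 and 21.5 CPM in Het males and 91.3, 94.4 and 64.3 CPM in KO males. Its groups did not overlap, by a narrow margin, and the log2 fold change was 1.03 (SE 0.37, adjusted p = 0.118), with an adjusted p of 0.0443 without Het_M_119. In all, 6 of the 8 genes had every KO male above every Het male, which held for 16.8% of all genes tested.

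In females, 1 of the 8 genes, Cyp3a13, was called higher in KO, where 11.0% of all genes tested were called, with 5.94% higher and 5.1% lower. It measured 120, 152 and 135 CPM in Het_F_111, Het_F_115 and Het_F_126, and 430, 360 and 254 CPM in KO_F_108, KO_F_112 and KO_F_123. Every KO female stood above every Het female. The log2 fold change was 1.36 (SE 0.23, adjusted p = 0.0067), a fold of 2.57, and the call held under all 26 alternatives in each sex.

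The group of 4 was already expressed in Het females, at very unequal levels. Cyp3a41a measured 336, 1497 and 6.31 CPM in Het_F_111, Het_F_115 and Het_F_126 and 1580, 1956 and 1629 CPM in KO females. The KO females were thus close to each other and above all Het females. Given the spread among the Het females, the log2 fold change of 1.49 (SE 1.30, adjusted p = 0.491) did not pass the test. Cyp3a41b likewise had every KO female above every Het female, with 3.3, 38 and 0.193 TPM in Het and 47.2, 52.5 and 53.6 TPM in KO females (log2 fold change 1.98, SE 1.51, adjusted p = 0.434).

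Cyp3a16 measured 6.35, 37.6 and 0.238 CPM in Het females and 36, 168 and 68.6 CPM in KO females. These groups overlapped, since Het_F_115 exceeded KO_F_108. The log2 fold change was 2.62 (SE 1.25, adjusted p = 0.188). Cyp3a44 measured 25.6, 79.2 and 23.7 CPM in Het and 17.2, 146 and 53 CPM in KO females, with wide overlap. Its log2 fold change of 0.75 (SE 0.74, adjusted p = 0.541) turned to -0.28 without KO_F_112. Het_F_115 had the highest level of all 4 genes, and Het_F_126 the lowest of each, although for Cyp3a44 it was close to Het_F_111. Among the KO females, KO_F_112 had the highest CPM and KO_F_108 the lowest CPM of all 4.

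Cyp3a11 was nearly level across females, at 1780 to 1997 CPM in Het and 1887 to 2509 CPM in KO (log2 fold change 0.16, SE 0.28, adjusted p = 0.749). Cyp3a25 measured 447 to 549 CPM in Het and 528 to 563 CPM in KO females (0.09, SE 0.18, adjusted p = 0.778). Cyp3a59 measured 29.5 to 62.6 CPM in Het and 60.2 to 80 CPM in KO females (0.46, SE 0.36, adjusted p = 0.44). Het_F_115, with the highest Cyp3a41a of the Het group, had the lowest Cyp3a25 and Cyp3a59 of the 6 females. All 8 estimates in females were above 0, and 3 of the 8 genes had every KO female above every Het female, against 15.8% of all genes tested.

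**Figure D4:**
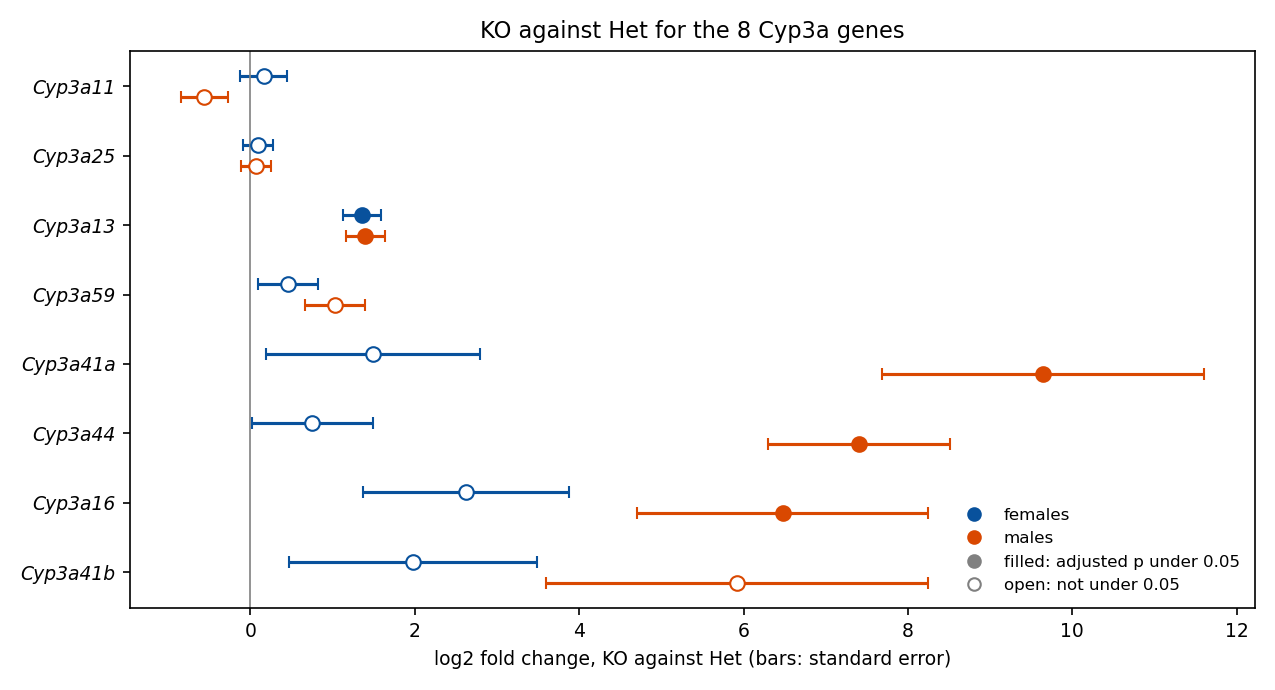
Log2 fold change of KO against Het for each Cyp3a gene, in females (blue) and males (orange), with bars for the standard error and filled points for an adjusted p under 0.05. Cyp3a13 is called in both sexes at 1.36 and 1.40, and Cyp3a16, Cyp3a41a and Cyp3a44 in males at 6.48, 9.64 and 7.41, and the male Cyp3a41b value is against livers with 0 counts and depends on the prior count.

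Averaged over the sexes, 4 of the 8 genes were called higher in KO, beside 22.4% of all genes called, with 12.2% higher and 10.2% lower. They were Cyp3a13 (1.38, SE 0.17, adjusted p = 0.000315), Cyp3a16 (4.55, SE 1.09, adjusted p = 0.0127, and 0.0507 without Het_M_119), Cyp3a41a (5.57, SE 1.16, adjusted p = 0.00906) and Cyp3a44 (4.08, SE 0.66, adjusted p = 0.00207). Cyp3a59 (0.74, adjusted p = 0.0601) and Cyp3a41b (3.95, adjusted p = 0.08) were just outside the threshold.

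Whether the KO difference itself differed between the sexes was tested as an interaction, and 0 of the 8 genes were called, beside 0.0465% of all genes (0.0362% higher and 0.0103% lower). At an unadjusted p under 0.05 there were 2 of 8 by edgeR, and DESeq2 called 2 of 8 after adjustment. These were Cyp3a44 and Cyp3a41a. For Cyp3a44 the log2 difference in males exceeded that in females by 6.65 (SE 1.30, adjusted p = 0.138). For Cyp3a41a it did so by 8.15 (SE 2.20, adjusted p = 0.371). For Cyp3a13 the 2 sexes were 0.04 apart (SE 0.32, adjusted p = 0.98).

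The sexes were also compared within each genotype. In Het livers, 2 of the 8 genes were called lower in males, beside 0.920% of all genes called and 0.460% called lower. Cyp3a44 was lower by a log2 fold change of -8.60 (SE 1.14, adjusted p = 0.00376), and this call held under all 25 alternatives. Cyp3a41a was lower by -11.32 (SE 2.06, adjusted p = 0.0365), and this call was lost in 12 of 25 alternatives, with adjusted p from 0.0605 to 0.189. It was lost without Het_F_111 (0.0649) or Het_F_115 (0.078), Het_M_119 (0.189), Het_M_125 (0.139) or Het_M_137 (0.155), KO_F_108 (0.065), KO_F_112 (0.0605) or KO_F_123 (0.0666), or KO_M_136 (0.0606). Cyp3a16 (-7.21, SE 1.79, adjusted p = 0.105) and Cyp3a41b (at least 1009-fold higher in Het females than in Het males, adjusted p of the fit 0.18) were not called. The limit for Cyp3a41b was 117-fold without Het_F_115, which held most of its Het female counts. Cyp3a11 was at the opposite side, at 1911 ± 116 CPM in Het females and 3915 ± 1353 CPM in Het males (SD, n = 3 each), a log2 fold change of 1.03 (SE 0.28, adjusted p = 0.153). These comparisons share the Het males with the comparison of KO and Het males.

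In KO livers, 0 of the 8 genes were called between the sexes by edgeR, beside 0.0517% of all genes (0.0413% higher and 0.0103% lower). At an unadjusted p under 0.05 there were 4, and DESeq2 called 1 after adjustment, Cyp3a41b. Cyp3a41a measured 1722 ± 205 CPM in KO females and 192 ± 190 CPM in KO males (SD, n = 3 each), with a log2 fold change of -3.16 (SE 1.38, adjusted p = 0.386). Cyp3a44 measured 72 ± 66.4 and 18.7 ± 11.1 CPM, with a log2 fold change of -1.94 (SE 0.76, adjusted p = 0.331). Every KO male remained below every KO female for Cyp3a41a, Cyp3a41b and Cyp3a16, while Cyp3a44 overlapped between the sexes.

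On the TPM scale, which lets genes be set side by side, the pool of Cyp3a transcripts had a different make-up in each group. In Het males Cyp3a11 stood at 1179 ± 360 TPM and Cyp3a25 at 255 ± 43.1 TPM (SD, n = 3), followed by Cyp3a13 at 27.5 ± 4.94 and Cyp3a59 at 14.6 ± 6.99, and the other 4 were below 0.1 TPM. In KO males the order began with Cyp3a11 (854 ± 278 TPM) and Cyp3a25 (297 ± 55.4), and Cyp3a13 (78.1 ± 18.3) and Cyp3a41a (70.6 ± 68.4) came next and overlapped. In KO females Cyp3a41a (658 ± 26.4 TPM) came close to Cyp3a11 (708 ± 40.9). The 2 ranges overlapped, though within each KO female Cyp3a41a was the lower of the 2. Cyp3a25 followed at 225 ± 17.8 TPM. Cyp3a13 (91.9 ± 29.1), Cyp3a41b (51.1 ± 3.41), Cyp3a16 (40.3 ± 27), Cyp3a44 (27.5 ± 23.4) and Cyp3a59 (26.9 ± 2.45) were lower, and the ranges of Cyp3a16 (18.4 to 70.5 TPM) and Cyp3a44 (7.67 to 53.3) overlapped that of each neighbour. In Het females Cyp3a41a (249 ± 319 TPM) could not be ranked against Cyp3a25 (225 ± 22.2), since its 3 values lay on both sides.

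Taken as shares of the summed Cyp3a TPM, the group of 4 made up 14.2%, 42.5% and 1.28% in Het_F_111, Het_F_115 and Het_F_126, and 40.5%, 44.3% and 42.5% in KO_F_108, KO_F_112 and KO_F_123. In males the share was 0.00362% to 0.0106% in Het and 1.06%, 11.1% and 6.33% in KO_M_118, KO_M_122 and KO_M_136. Het_F_115 thus stood within the range of the KO females in this measure. The summed TPM of the 8 genes ranged from 998 to 1644 in Het females, 1731 to 1928 in KO females, 1169 to 1929 in Het males and 1023 to 1515 in KO males. In females the KO and Het ranges did not overlap, and in males they did.

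**Figure D5:**
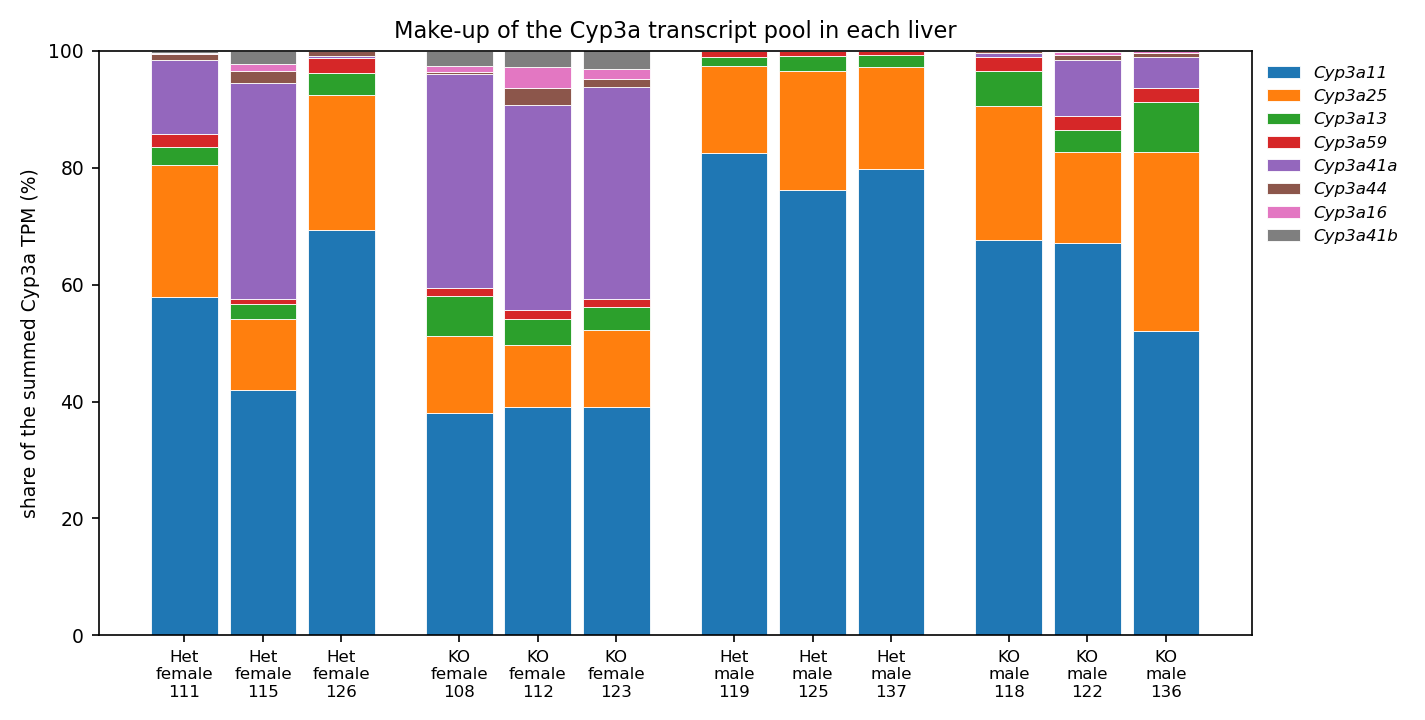
Stacked bars of each Cyp3a gene's share of the summed Cyp3a TPM, in percent, for each of the 12 livers named by genotype, sex and mouse number. Cyp3a41a (purple) fills 35.2% to 36.5% of the bar in KO females, 0.252% to 37.0% in Het females and 0.8% to 9.62% in KO males, and is not visible in Het males.

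The other Cyp3a features of the table were scarce. Cyp3a57, next to Cyp3a16, had 7 counts in all in Het females and 54.2 in KO females, a ratio of 9.18 (4.16 to 23.9), and was called higher in KO females (log2 fold change 2.37, SE 0.52, adjusted p = 0.0145). That call was lost without Het_F_126 (0.0558) or KO_F_112 (0.0524). In males it was not called (0.95, adjusted p = 0.346). Cyp3a63-ps, the pseudogene between the 2 Cyp3a41 genes, had 0 counts in the Het males and 27.1 in all in the KO males, at least 7.34-fold higher against the floor of 3 counts (4.85 to 8.84 with a mouse left out), and was not called (2.41, adjusted p = 0.314). Cyp3a61-ps1 had 0 counts in every liver, a result that still allows up to 3 counts in a liver. Of the protein-coding genes that flank the loci, Zscan25, beside Cyp3a57, was called higher in KO females (0.81, adjusted p = 0.0322) and not in males (0.26, adjusted p = 0.495). Pilrb2 and Gjc3, on either side of Cyp3a13, were not called in either sex.

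The genes that serve these enzymes were counted in the same fit, in which 11.0% of all genes were called in females and 7.45% in males. Of 6 genes listed as partners of P450 enzymes, Por was called higher in KO females (log2 fold change 1.21, adjusted p = 0.0393). Cyb5b and Pgrmc2 were called lower in KO females (-1.33, adjusted p = 0.0182, and -0.46, adjusted p = 0.0457). With a mouse left out, the calls numbered 0 to 1 higher and 0 to 2 lower: Por was lost without Het_F_111, Het_F_115, Het_F_126, Het_M_125, KO_F_108, KO_F_112 or KO_M_122 (adjusted p = 0.0508 to 0.158), Cyb5b without KO_F_112 (0.0506) and Pgrmc2 without any mouse but KO_F_123 (0.0514 to 0.129). None of the 6 was called in males (0 to 1 lower with a mouse left out). Cyb5a, a cytochrome b5 gene among the 6, was not called in either sex (-0.46, adjusted p = 0.0746 in females, and -0.25, adjusted p = 0.371 in males). Of 8 heme synthesis genes, Uros was called lower in KO females (-0.75, adjusted p = 0.0433) and none was called in males. Uros was lost without Het_F_111, Het_F_115, Het_F_126, Het_M_119, KO_F_108, KO_F_112, KO_M_118 or KO_M_122 (0.052 to 0.0943), and in males 0 to 3 were lower with a mouse left out. Alas1, the rate-limiting enzyme, measured 699 CPM in Het and 493 CPM in KO females on average and 871 and 436 CPM in males (adjusted p = 0.721 and 0.493). Of 4 heme breakdown genes, Hmox1 was higher (2.11, adjusted p = 0.00527) and Blvrb lower (-0.83, adjusted p = 0.029) in KO females, and Hmox2 was higher in KO males (0.50, adjusted p = 0.0329). Blvrb was lost without Het_F_111, Het_F_126, KO_F_108 or KO_F_112 (0.0631 to 0.0929), and Hmox2 without any male or Het_F_111 (0.0503 to 0.126).

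Of 17 transcription factors known to act on Cyp3a genes, 3 were called lower in KO females and 4 in KO males (2 to 4 and 1 to 4 when a mouse was left out), and none higher, with a median log2 fold change of -0.22 and -0.33. Over all genes tested, 5.10% were called lower in females and 2.98% in males. Nr1i2 (PXR) was not called in either sex (-0.10 in females and -0.30 in males), nor were Nr1i3 (CAR) (-0.65 and 0.04) and Hnf4a (0.20 and -0.33). Cebpa was lower in females (-1.09, adjusted p = 0.0114) and in males (-1.12, adjusted p = 0.00989), as were Nr1h4, the bile acid receptor (-1.17 and -0.88, adjusted p = 0.0109 and 0.0345), and Ppara (-1.51 and -1.22, adjusted p = 0.0165 and 0.0397). Nr1h4 in males was lost without any male (0.071 to 0.102), Ppara in males without any male but KO_M_118 (0.0744 to 0.116) and Ppara in females without KO_F_108 (0.0644). Of 18 other PXR and CAR target genes, 3 were called higher and 1 lower in KO males and 2 lower in KO females (1 to 3 higher and 1 lower in males, 0 to 1 higher and 0 to 4 lower in females, with a mouse left out). Over all genes tested, 7.45% were called in males and 11.0% in females, so the female count was near that share. Abcb1a, a drug transporter, was higher in KO males (1.53, adjusted p = 0.00567), and so was the glucuronosyltransferase Ugt1a1 (1.01, adjusted p = 0.0212), while the esterase Ces2a was lower in both sexes (-1.24 and -1.55, adjusted p = 0.0197 and 0.0082). Ugt1a1 was lost without Het_M_119, Het_M_137, KO_M_118 or KO_M_136 (0.0621 to 0.079), and Ces2a in females without Het_F_126 or KO_F_108 (0.059 and 0.0699).

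Genes known to be higher in female liver were also called higher in KO males. Of 20 such genes outside Cyp3a, 14 were called higher in KO males (8 to 14 when a mouse was left out) and none lower, with a median log2 fold change of 3.82, and 1 was called higher and 2 lower in KO females (1 to 2 and 0 to 2). In Het livers 12 of the 20 were called lower in males (8 to 13). This comparison shares the Het males with the comparison of KO and Het males. Over all genes tested, the median was 0.02 in males, with 4.47% called higher and 2.98% lower. In females 5.94% of all genes were called higher and 5.10% lower, and in Het livers 0.460% were called lower in males. The list summed to 39.6 to 97.3 CPM in Het males, 1544 to 1911 in KO males, 2049 to 4989 in Het females and 2498 to 5455 in KO females. Het_F_115 and KO_F_112, with the most Cyp3a41a of their groups, also had the highest sum. Among KO males the order of the sums differed: KO_M_118, lowest in all 4 Cyp3a genes, had the highest sum. Cyp2a4 held much of that sum, at 1013 CPM in KO_M_118 and 849 and 420 CPM in KO_M_122 and KO_M_136. Most genes of the list were lowest in KO_M_118 among the KO males, as the 4 Cyp3a genes were. Of 19 genes known to be higher in male liver, 13 were called lower in KO males and none higher, with a median of -3.03, and 5 were lower and 2 higher in KO females (11 to 16, 3 to 6 and 0 to 2 with a mouse left out). Both lists were chosen with earlier results of these data known.

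Of 15 genes of growth hormone and sex hormone signaling, 4 were called higher and 2 lower in KO males, and 1 higher and 2 lower in KO females. With a mouse left out, these counts were 3 to 4 and 0 to 3 in males, and 0 to 2 and 0 to 2 in females. Over all genes tested, 4.47% were called higher and 2.98% lower in males, and 5.94% and 5.10% in females. Cux2, a repressor known to be made in female liver, rose in KO males from 0.601 to 32.9 CPM on average (log2 fold change 5.65, SE 0.59, adjusted p = 0.000699), and in Het livers it was lower in males (adjusted p = 0.00153). Esr1, the estrogen receptor, was also higher in KO males (1.55, SE 0.22, adjusted p = 0.00196). In KO females Cux2 (1.36, adjusted p = 0.0859) and Esr1 (0.30, adjusted p = 0.387) did not pass the test. Stat5b, which carries the growth hormone signal, was higher in KO females (0.56, adjusted p = 0.0259), a call lost without Het_F_111, Het_F_115, Het_F_126, KO_F_108 or KO_F_112 (0.054 to 0.0892).

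Of 56 other P450 genes of families 1 to 4 that passed the filter, 11 were called higher and 7 lower in KO males, and 3 higher and 10 lower in KO females. For these and the lists below, the shares over all genes were 4.47% higher and 2.98% lower in males. In females they were 5.94% higher and 5.10% lower. Cyp2a4, a steroid hydroxylase of female liver, rose in KO males by 9.98 on the log2 scale. Cyp2u1 fell in both sexes (-1.79 in females and -3.93 in males, adjusted p = 0.00243 and 7.57e-06). Cyp2a4 is also in the list of female liver genes above and Cyp2u1 in that of male liver genes. Other P450 genes counted here are in those lists too, so the counts are not separate. As markers of the state of the liver, 12 of 23 acute phase genes were called higher in KO in each sex and none lower (9 to 15 in females and 5 to 13 in males when a mouse was left out), and the list summed to 13913 to 19250 CPM in Het and 24317 to 40147 CPM in KO livers. Kupffer cell markers summed to 119.1 to 161.6 CPM in Het males and 163 to 467 CPM in KO males, with 2 of 7 called higher (0 to 4 with a mouse left out). In females they summed to 254 to 313 and 308 to 503 CPM, which overlap, with 0 called. Sinusoidal endothelium markers summed to 245 to 314 CPM in Het and 131 to 198 CPM in KO females, with 3 of 6 called lower, and to 168 to 224 and 121 to 212 CPM in males, which overlap, with 0 called (0 to 3 lower with a mouse left out). Stellate cell markers summed to 386 to 482 and 143 to 187 CPM in females, with 3 of 6 called lower, and to 252 to 375 and 139 to 285 CPM in males, with 2 called lower (1 to 2). The part of these cell types in the Cyp3a differences was not tested.

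Over the 12 livers, the genes outside Cyp3a whose log2 CPM followed Cyp3a41a most closely were Sult2a1 (Pearson r = 0.966), Sult2a2 (0.959), Pnp (0.956), Cyp2c39 (0.956) and Cyp17a1 (0.955). For Cyp3a11 they were Ces2c (0.907), Mup8 (0.873), Gm18665 (0.849), Mup20 (0.839) and Dmac1 (0.831). The 12 points share their libraries and fall into 4 groups, so these values are a description of likeness only.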

How the data were processed

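RNA-seq of 12 mouse livers was analysed. The authors depleted ribosomal RNA, sequenced stranded paired reads, and ran the nf-core RNA-seq pipeline with STAR (2.7.9a) and Salmon (1.10.1) on GRCm39 with GENCODE annotation. They deposited estimated counts per gene, 2 scaled versions of these estimated counts, and TPM. Per the labels, livers were grouped by genotype and sex, with 3 mice in each. Estimated counts were rounded (12% were not whole). A gene was kept where 3 or more livers had 5 or more reads once every library was brought to the median size, which left 19350 of 57180. The model, in edgeR 4.0.16 (R 4.3.3), had 4 group means, TMM scaling, a prior count of 2 and robust quasi-likelihood tests, with Benjamini-Hochberg adjustment over all genes tested. The step was tested on simulated data. SEs come from the F statistic. TPM, as the authors deposited it, was used for levels between genes. Total counts limit precision as given in the report, and intervals and floors (3 counts) cover counting error only.

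The members and the gene lists were chosen with earlier results of these data known. Genes named are the 8 members, other Cyp3a features, Xpa, flanking genes, the 3 genes of smallest p per list over both sexes, Por, Alas1, Nr1i2, Nr1i3 and Hnf4a, and the 5 genes most like Cyp3a11 and Cyp3a41a, with Cyb5a added after seeing the data. The result of 1 gene that this rule names is not reported here. The share of all genes called was 11.0% in females and 7.45% in males. Calls in the other lists were fetal liver genes 2 higher of 7 in each sex, pericentral genes 1 higher and 2 lower of 12 in females and 1 each in males, periportal genes 1 higher of 11 in females and 0 in males. Sinusoidal markers gave 3 lower of 6 in females and 0 in males, stellate markers 3 and 2 lower of 6, hepatocyte markers 1 lower of 6 in females, pancreatic markers 1 lower in males, and bile duct, lymphocyte and neutrophil markers (2 of 5 tested) 0 calls in either sex. No kidney marker passed the filter, so none was tested. Protein identity, planned at first, was replaced by coding identity and shared 31-base words of GENCODE transcripts of GRCm39. Alternatives changed the count table, filter, scaling, quasi-likelihood settings, tool (DESeq2 1.42.0, limma 3.58.1) and left out each mouse.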

Additional observations from a re-analysis of the deposited data

Results flagged for a closer look

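Cyp2a4, from the list of female liver genes, differed between the sexes in its KO difference by a test of that difference itself (edgeR interaction term). KO exceeded Het by 0.97 on the log2 scale in females (adjusted p = 0.0778) and 9.98 in males, and the difference between the sexes was 9.01 (SE 0.55, adjusted p = 3.4e-05). With 3 livers per group, samples far from their group were not tested for.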

How the results depend on the processing

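No paired analysis was possible because the mouse numbers are not shared between groups. Cyp3a13 was called in both sexes under all 26 alternatives, and it was the only one of the 8 genes called in females in each, though 4 were tested when 10 counts were asked of every liver. In males the 4 calls became 5 with DESeq2, 2 with no filter on low counts or with limma on log2(TPM + 1), 1 when 10 counts were asked of every liver, and 2 to 4 when a mouse was left out (2 without Het_M_125 or Het_M_137). Averaged over the sexes, 4 became 1 with 10 counts in every liver, a filter that removes genes absent from Het males, 6 with DESeq2 or limma on log2(TPM + 0.1), 5 with limma on log2(TPM + 1) or no robust estimation, and 4 to 5 when a mouse was left out (5 without Het_F_115). The interaction went from 0 to 2 with DESeq2. Between the sexes in Het livers, 2 became 5 with DESeq2, 0 with 10 counts in every liver, 1 with no filter, limma on log2(TPM + 1) or only the 2 groups in the fit, and 1 to 3 when a mouse was left out. In KO livers, 0 became 1 with DESeq2.

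Genes called over all genes are sensitive to the same choices. They numbered 2135 in females (462 to 3174, and 844 to 2720 with a mouse left out), 1441 in males (964 to 2260, and 539 to 1876), 9 for the interaction (8 to 162, and 4 to 90), 178 between the sexes in Het (101 to 550, and 96 to 232) and 10 in KO livers (0 to 315, and 6 to 284).

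Some values changed sign. Cyp3a25 went to -0.002 in females with limma and lay between -0.008 and 0.127 with a mouse left out (negative without Het_F_115), between -0.118 and 0.175 in males (negative without Het_M_137 or KO_M_118) and between -0.019 and 0.134 in the mean over the sexes (negative without Het_M_137). Its interaction went to 0.041 and 0.042 on the scaled counts, 0.04 with upper quartile scaling, 0.137 with library size scaling, 0.214 with limma and -0.198 to 0.093 with a mouse left out. The Cyp3a13 interaction was -0.141 to 0.23 with a mouse left out. With limma on log2(TPM + 1) the interaction, 3.85 for Cyp3a16 and 3.94 for Cyp3a41b by edgeR and not called, was -1.105 and -2.208, and -0.892 for Cyp3a41b with 0.1 added. Ratios of summed counts without single mice were added after seeing the data. With a mouse left out, Cyp3a44 in females was -0.282 (without KO_F_112) to 1.534, and Cyp3a59 between the sexes in Het -0.748 to 0.022 (without Het_M_137). The causes were not tested. For the other named genes, in refits added after seeing the data, 2700 of 2928 results kept their call, 228 lost it and 0 changed sign.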
